A study of Mus musculus with 6 samples.

Results

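The smooth muscle contraction and excitability genes are 39 genes of the contractile apparatus of smooth muscle and of the electrical and calcium signals that start its contraction. They were picked by gene name among the non-control probes of the array, where 102 probes carry 1 of the names. Of the 39 genes, 37 had a probe well above background, out of 22260 genes measured. They comprise 26 contractile genes, 11 genes of calcium handling and excitability (9 measured) and 2 pacemaker genes.

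The tissue was the ureter of mice on a C57BL/6N background, taken at 2 months of age and 4 days after unilateral ureteral obstruction (UUO), in which the outflow of 1 ureter is blocked. There were 3 mice labelled Col17a1-WT, all male, and 3 labelled Col17a1-KO, of which replicates 1 and 2 were male and replicate 3 was female. Each mouse gave 1 array, every mouse had undergone UUO, and no ureter without obstruction was analysed here. The labels do not describe how Col17a1 was disrupted, and the RNA came from the ureter as a mixture of cell types. In such bulk RNA, fewer cells of a type and less RNA per cell cannot be told apart.

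The ureter moves urine by peristalsis. Pacemaker activity near the kidney depolarises the smooth muscle, voltage-gated channels admit calcium, and calcium with calmodulin activates myosin light chain kinase, so that myosin pulls on actin. Potassium channels and the nitric oxide and cGMP pathway relax the muscle, and serum response factor (Srf) with its coactivator myocardin (Myocd) drives many contractile genes through a DNA element called the CArG box.

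The CArG box consists of CC, then 6 bases that are each A or T, then GG, and this pattern reads the same way on both strands. It was looked for in RefSeq promoter windows of GRCm38.p6 that run from 250 bases before to 50 bases after a transcript start. Of the 39 genes, 33 had a window and 5 of them (15.2%) had a box in it, against 1.81% of 27025 genes. Counted by window, 6 of 43 member windows (14%) had a box, against 1.63% of 32851 windows of the same length. The stretches around the boxes are shown because they place the Srf element in members whose array values are given below, and capitals mark the boxes.
Myl9, chr2:156775278-156775337, plus strand: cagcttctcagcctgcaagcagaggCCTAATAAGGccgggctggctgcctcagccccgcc
Myl6, chr10:128493025-128493084, minus strand: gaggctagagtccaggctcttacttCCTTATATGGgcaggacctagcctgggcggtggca
Vcl, chr14:20929148-20929205, plus strand: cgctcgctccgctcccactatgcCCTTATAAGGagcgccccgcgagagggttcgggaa
Ldb3, chr14:34588682-34588741, minus strand: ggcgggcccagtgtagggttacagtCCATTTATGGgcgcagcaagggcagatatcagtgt
Srf, chr17:46556190-46556269, minus strand: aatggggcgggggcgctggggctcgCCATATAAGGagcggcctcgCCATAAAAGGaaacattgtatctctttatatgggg
The boxes end 152 bases before the start in Myl9, 41 in Myl6, 218 in Vcl, 26 in Ldb3, and 73 and 53 in Srf. No window was matched for Myh11, Actg2, Tagln, Myocd, Cacna1h and Itpr1. A match describes the letters of a window and is not a measurement of Srf binding. A window without a match lacks only this exact pattern. Variants of the pattern and positions outside the window were not searched.

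Values are log2 signals after subtraction of the 75th percentile of the same array, so that 0 is the level of that percentile. They compare arrays for 1 gene and do not rank genes against each other. All 37 measured members and all 8 urothelium markers were well above background on all 6 arrays, so smooth muscle and urothelium genes were measured on each array. The arrays had 75th-percentile signals from 143.7 to 164.9, and correlations between arrays across genes ranged from 0.977 to 0.993. The KO-labelled ureters did not have less Col17a1 RNA. The brighter of its probes had values of -2.33, -0.80 and -0.39 in WT and 0.50, 0.53 and 0.40 in KO-labelled ureters. Its difference was 1.65 ± 0.48 (SE, limma fit over all measured probes), and the limma fit over genes gave an adjusted p of 0.457. The dimmer probe was 1.10 higher in KO-labelled ureters, so the groups are called WT and KO-labelled throughout. WT replicate 2 carried kidney transcripts: the mean of the 5 measured kidney markers of 8, after centring each gene, was 1.71 there and between -0.55 and -0.19 on the other 5 arrays.

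All 37 measured members had a higher mean in the KO-labelled ureters, where 49.8% of all genes did. The median difference was 0.37 in log2 over the members, 0.38 over the contractile genes, 0.26 over the calcium handling and excitability genes and 0.36 over the pacemaker pair, against -9e-04 over all genes. None of the 37 passed the threshold (limma, adjusted p under 0.05, which 0% of all genes passed), and their adjusted p-values ran from 0.495 to 0.999. At an unadjusted p under 0.05 there were 2 members, Srf and Ano1, which is 2 of 37 against 4.35% of all genes called higher. In 3 members, Srf, Flna and Cacna1h, all KO-labelled arrays lay above all WT arrays, as 7.28% of all genes did, so neither count stood far from that of all genes.

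The common direction depended in part on single arrays. Without WT replicate 2, 29 of 37 members were higher (51.4% of all genes), none was at an unadjusted p under 0.05 (2.84% of all genes were, and higher), and the medians were 0.21 over all members, 0.22 over the contractile genes and -0.03 over the calcium handling and excitability genes. Without KO replicate 3, the female, 37 were higher (51.1% of all genes), 9 were higher at an unadjusted p under 0.05 (6.41% of all genes), and the medians were 0.55 over all members and 0.60 over the contractile genes. Without WT replicate 1, 36 were higher (46.6% of all genes), 8 of them at that p (6.67% of all genes), and those medians were 0.52 and 0.58. Leaving out WT replicate 3, KO replicate 1 or KO replicate 2 left 0 members at that p, against 3.81%, 2.5% and 2.53% of all genes that were higher at it. The calcium handling and excitability median was 0.07 without KO replicate 1 and the pacemaker median 0.20 without KO replicate 2. With WT replicate 2 and KO replicate 3 left out together, 35 were higher (52.4% of all genes), 6 of them at that p (4.43% of all genes), and the median was 0.37.

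**Figure D1:**
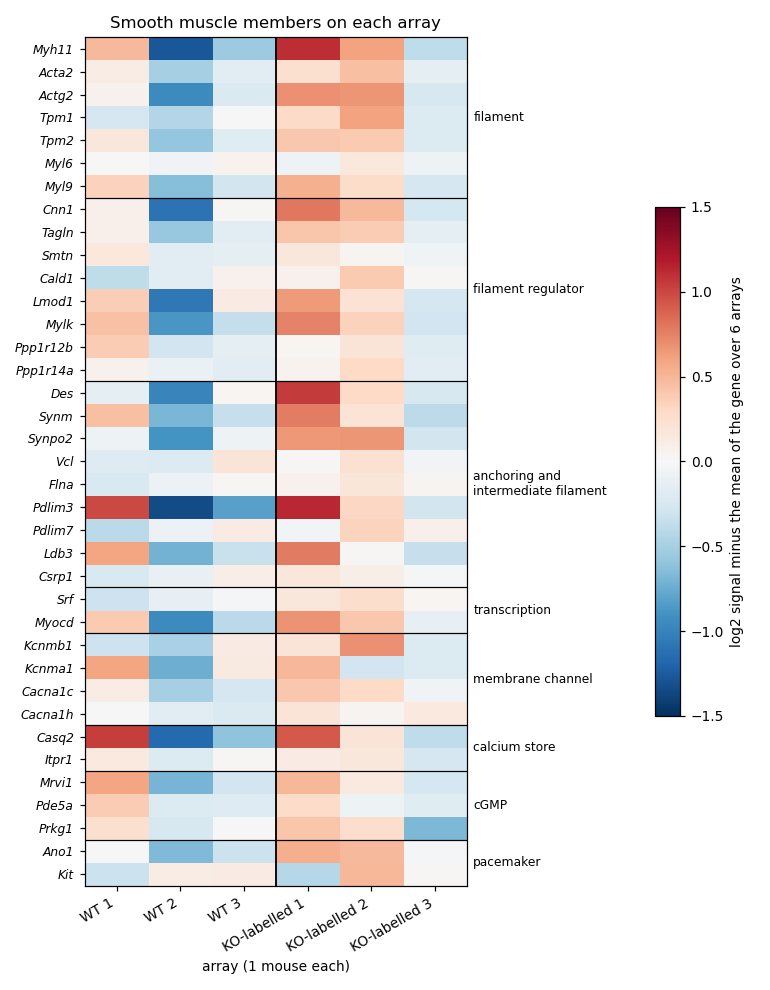
Log2 signal of the 37 measured members (rows, grouped by role) on the 6 arrays (columns), each gene minus its mean over the arrays, with blue below and red above that mean. WT replicate 2 is the lowest array for 26 genes, and KO replicates 1 and 2 together with WT replicate 1 are the 3 highest for 23.

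The filament genes encode the actin and myosin that generate force. Myh11, the smooth muscle myosin heavy chain (probe at chr16:14195223-14198147, mm9), had values of 3.08, 1.32 and 2.05 in WT replicates 1 to 3 and 3.69, 3.19 and 2.21 in the KO-labelled replicates. WT replicate 1 lay above KO replicate 3, so the groups overlapped. The difference of 0.88 ± 0.54 (SE, 3 arrays each) was smaller than the WT range of 1.76 (limma, adjusted p = 0.668). Its 95% interval ran from -0.43 to 2.19. The difference was 0.47 without WT replicate 2 and 0.68 with its 4 probes averaged.

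Actg2, the enteric gamma actin of visceral muscle, had values of 4.61, 3.59 and 4.33 in WT and 5.22, 5.20 and 4.31 in KO-labelled ureters. Here KO replicates 1 and 2 lay above every WT array while KO replicate 3 lay among them, with a difference of 0.74 ± 0.35 (limma, adjusted p = 0.591). Acta2, the alpha actin of smooth muscle, likewise had KO replicates 1 and 2 above every WT array, with 7.67, 7.05 and 7.40 in WT against 7.80, 8.01 and 7.42. Its difference was 0.37 ± 0.22 (limma, adjusted p = 0.652). The tropomyosins, which lie along actin filaments, differed by 0.45 ± 0.23 for Tpm1 and 0.40 ± 0.25 for Tpm2.

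Both myosin light chains were measured. Myl9, the regulatory chain that the kinase phosphorylates, had values of 7.05, 6.05 and 6.42 in WT and 7.23, 6.98 and 6.45 in KO-labelled ureters. WT replicate 2 was the lowest and WT replicate 1 the second highest (difference 0.38 ± 0.31; limma, adjusted p = 0.749). Myl6, the essential light chain that non-muscle cells also use, stayed between 7.85 and 8.09 on all 6 arrays. Its difference was 0.01 with a 95% interval from -0.26 to 0.28. Both genes have a CArG box in the windows shown above.

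The filament regulators set how actin and myosin interact. Cnn1, calponin, an actin-binding inhibitor of myosin, had values of 5.67, 4.49 and 5.61 in WT and 6.38, 6.09 and 5.33 in KO-labelled ureters. KO replicate 3 lay below 2 of the WT arrays, and the difference was 0.68 ± 0.41 (limma, adjusted p = 0.657). Tagln, transgelin or SM22, an actin-bundling protein, had 7.57, 6.92 and 7.32 in WT against 7.90, 7.86 and 7.34, a difference of 0.43 ± 0.23. Mylk, the kinase that starts contraction, had 4.51, 3.19 and 3.72 in WT against 4.81, 4.41 and 3.78. Its difference of 0.53 ± 0.40 was less than its WT range of 1.31.

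Smaller differences were measured for the phosphatase subunit that opposes the kinase and for its inhibitor. Ppp1r12b, a targeting subunit of myosin phosphatase, had values of -0.63, -1.30 and -1.16 in WT and -0.99, -0.82 and -1.20 in KO-labelled ureters. Its difference was 0.03, with a 95% interval from -0.47 to 0.52. Ppp1r14a, the phosphatase inhibitor CPI-17, differed by 0.13 ± 0.15, and Smtn, smoothelin, a protein of contractile smooth muscle, by 0.10 ± 0.13. Cald1, caldesmon, which also has a form in non-muscle cells, had 4.96, 5.17 and 5.40 in WT against 5.40, 5.72 and 5.35 and differed by 0.32 ± 0.16. Its lowest array was WT replicate 1, not WT replicate 2. Lmod1, leiomodin, which nucleates actin filaments, differed by 0.40 ± 0.42, by -0.04 without WT replicate 2 and by 0.035 after normexp background correction.

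Anchoring and intermediate filament genes tie the filaments to dense bodies and to the membrane. Des, desmin, had values of 1.09, 0.26 and 1.27 in WT and 2.29, 1.54 and 1.005 in KO-labelled ureters. KO replicate 3 lay below 2 WT arrays and KO replicate 1 far above all of them (difference 0.74 ± 0.40; limma, adjusted p = 0.625). Synpo2, myopodin, an actin-bundling protein of dense bodies, had 0.27, -0.55 and 0.27 against 1.001, 1.01 and 0.07, a difference of 0.70 ± 0.34. Synm, synemin, which pairs with desmin, differed by 0.39 ± 0.39.

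Pdlim3, the actinin-associated LIM protein, varied widely between arrays. Its values were 1.89, -0.44 and 0.09 in WT and 2.03, 1.22 and 0.63 in KO-labelled ureters. The WT range was 2.33, against a difference of 0.78 ± 0.66 (limma, adjusted p = 0.759). Ldb3, another protein of the same PDZ and LIM family, had -1.51, -2.81 and -2.44 in WT against -1.32, -2.08 and -2.44. WT replicate 1 was second only to KO replicate 1, and the difference of 0.31 ± 0.42 was -0.01 without KO replicate 1 and 0.095 after normexp.

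A further group of anchoring genes is expressed by many other cell types as well. Flna, filamin A, an actin crosslinker (probe at chrX:71468802-71468861, mm9), had values of 6.33, 6.47 and 6.58 in WT and 6.62, 6.74 and 6.59 in KO-labelled ureters. The groups did not overlap, although the gap between WT replicate 3 and KO replicate 3 was small beside the spread (difference 0.19 ± 0.11; limma, adjusted p = 0.647). Its other measured probe differed by -0.14. Pdlim7, a PDZ and LIM scaffold of actin filaments, differed by 0.24 ± 0.18 and Csrp1, a LIM protein of the cytoskeleton, by 0.16 ± 0.12, with WT replicate 1 lowest in both. Vcl, vinculin, which links integrin adhesions to actin, had 3.25, 3.24 and 3.64 in WT against 3.47, 3.68 and 3.40. Its difference was 0.14 ± 0.15.

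The transcription pair split by array pattern. Srf had values of 1.61, 1.80 and 1.89 in WT and 2.09, 2.18 and 1.95 in KO-labelled ureters. All KO-labelled arrays lay above all WT arrays, and the difference was 0.31 ± 0.12 (limma, unadjusted p = 0.0471, adjusted p = 0.542). It was 1 of 3 members, with Tpm1 and Cacna1h, whose WT range did not exceed the difference. Myocd, the coactivator found in smooth and cardiac muscle, had -1.04, -2.38 and -1.83 in WT against -0.75, -1.03 and -1.55. Its WT replicate 1 lay close to KO replicate 2, and its difference was 0.64 ± 0.37 (limma, adjusted p = 0.65), or 0.31 after normexp. Among the 5 genes with a box in the windows shown above, Myl9 and Ldb3 had their lowest value in WT replicate 2 and their 3 highest in WT replicate 1 and KO replicates 1 and 2. Srf had its lowest value in WT replicate 1 and Myl6 in KO replicate 3, while in Vcl WT replicates 1 and 2 were nearly level at the bottom.

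**Figure D2:**
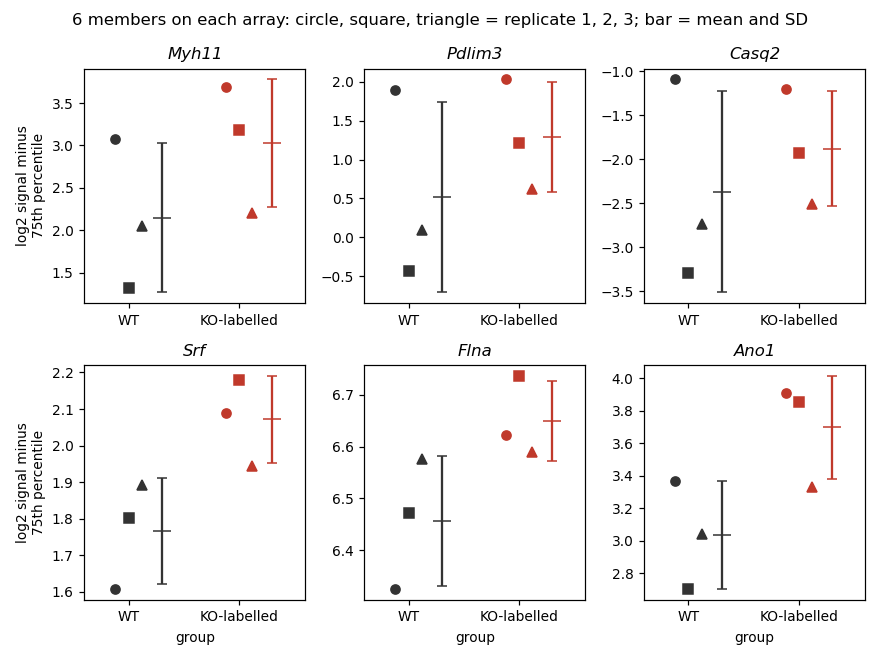
Log2 signal minus the array's 75th percentile (y axis, a separate scale per gene) for 6 members in WT (black) and KO-labelled (red) ureters. Symbols are arrays and bars are the mean and SD of 3 arrays. In Myh11, Pdlim3 and Casq2 the circle, replicate 1, is high in WT as well, while in Srf and Flna it is the lowest WT array.

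The membrane channels control calcium entry and its electrical brake. Cacna1c, the pore of the L-type calcium channel that carries the main inward current, had values of -0.22, -0.83 and -0.59 in WT and 0.07, -0.04 and -0.38 in KO-labelled ureters. KO replicate 3 lay within the WT range, and the difference was 0.43 ± 0.20 (limma, adjusted p = 0.579). Cacna1h, the pore of a T-type channel that opens at low voltage (probe at chr17:25521284-25521343, mm9), had -1.33, -1.49 and -1.54 against -1.13, -1.28 and -1.17. The groups did not overlap and the difference was 0.26 ± 0.11 (limma, unadjusted p = 0.0532, adjusted p = 0.554), while its other measured probe differed by 0.03.

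The 2 subunits of the large-conductance calcium-activated potassium channel, which damps excitation, differed in pattern. Kcnma1, the pore, had values of -0.78, -2.10 and -1.23 in WT and -0.87, -1.65 and -1.57 in KO-labelled ureters. WT replicate 1 was the highest array, and the difference was 0.01 with a 95% interval from -0.91 to 0.93. Kcnmb1, the muscle subunit that raises its calcium sensitivity, had -1.90, -2.07 and -1.46 against -1.40, -0.90 and -1.79. KO replicate 3 lay below WT replicate 3 and the difference was 0.45 ± 0.27 (limma, adjusted p = 0.654).

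Calcium store genes govern release from the sarcoplasmic reticulum. Ryr2, the cardiac ryanodine receptor (3 probes), and Pln, phospholamban, the inhibitor of the calcium pump (1 probe), were not well above background on any array, so they have no value here. Casq2, calsequestrin, which buffers calcium in the store, had values of -1.09, -3.29 and -2.74 in WT and -1.20, -1.93 and -2.51 in KO-labelled ureters. Its WT range of 2.20 was several times its difference of 0.49 ± 0.61 (limma, adjusted p = 0.838). Leaving out WT replicate 2 gave a difference of 0.033, leaving out WT replicate 1 gave 1.13, and normexp background correction gave 0.12. Itpr1, the inositol trisphosphate receptor, stayed between 2.09 and 2.51 on all arrays and differed by 0.03, with 3 of its 4 measured probes lower in KO-labelled ureters.

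The cGMP pathway genes, which relax smooth muscle, had a median difference of 0.01 over 3 genes. Prkg1, the cGMP-dependent kinase, had values of -1.51, -1.99 and -1.75 in WT and -1.34, -1.48 and -2.42 in KO-labelled ureters. The female KO replicate 3 was the lowest of the 6 arrays, and the 95% interval of the difference ran from -0.74 to 0.74. Pde5a, which breaks down cGMP, differed by 0.01 with an interval from -0.50 to 0.52. Mrvi1, the kinase substrate that restrains the inositol trisphosphate receptor, had 1.86, 0.56 and 0.98 against 1.76, 1.41 and 0.996 and differed by 0.26 ± 0.36. It differed by -0.03 without WT replicate 2. These intervals include changes of up to about 0.5 in log2 in either direction for Pde5a and larger ones for Prkg1, so changes of that size could have gone undetected.

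The pacemaker pair are genes of interstitial pacemaker-like cells. Ano1, a calcium-activated chloride channel that smooth muscle and some epithelia also use (probe at chr7:151774604-151774663, mm9), had values of 3.37, 2.70 and 3.04 in WT and 3.91, 3.85 and 3.33 in KO-labelled ureters. KO replicate 3 lay just below WT replicate 1, and the difference was 0.66 ± 0.23 (limma, unadjusted p = 0.0268, adjusted p = 0.495). Kit, the receptor tyrosine kinase of pacemaker-like interstitial cells and of mast cells, had -0.42, 0.02 and 0.04 against -0.52, 0.40 and -0.07. KO replicates 1 and 2 were its lowest and highest arrays, and the difference was 0.06 ± 0.26. The 4 other interstitial pacemaker markers differed by a median of 0.11, with 2 higher and 2 lower. Of these Thbs4, thrombospondin 4, was lower on every KO-labelled array than on any WT array, as were 1809 of all 22260 genes. Its difference was -1.62 ± 0.54 (limma, unadjusted p = 0.0235, adjusted p = 0.488). Thbs4 is named here after its values were seen.

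**Figure D3:**
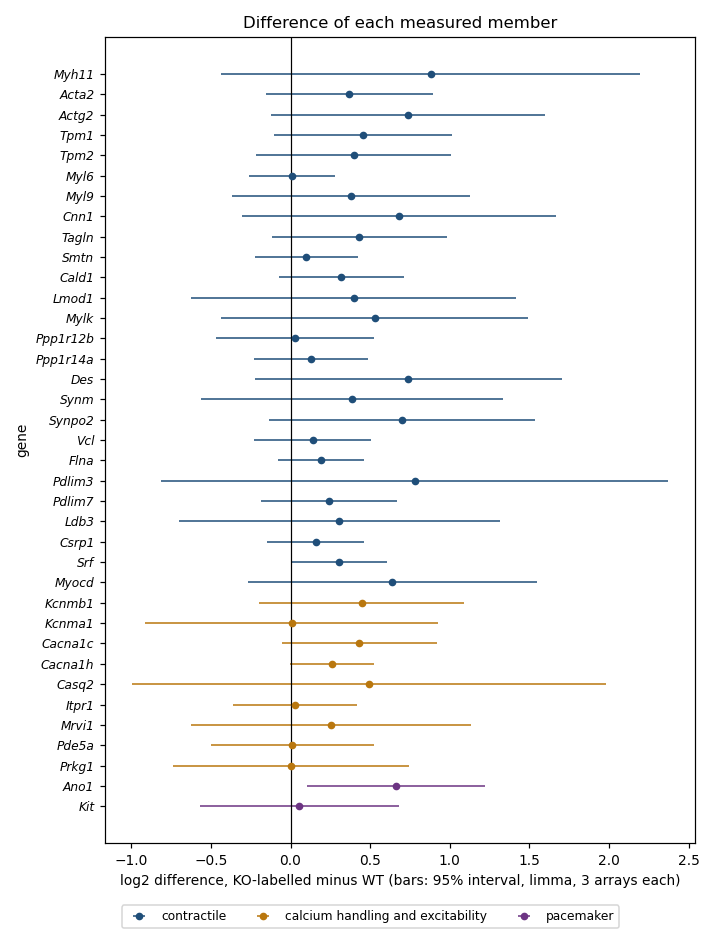
Log2 difference, KO-labelled minus WT, of each measured member (points, coloured by class) with its 95% interval from limma, 3 arrays each. All 37 points lie above 0, and only the intervals of Srf and Ano1 exclude 0 before adjustment over all genes.

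The members shared an order of arrays that crossed the groups. WT replicate 2 was the lowest array for 26 of 37 members, against 18.4% of all genes. The 3 highest arrays were WT replicate 1 and KO replicates 1 and 2 in 23 members, against 12.1% of all genes. KO replicate 3 lay inside the WT range in 31 members and below WT replicate 1 in 27. The shares of all genes were not counted for these patterns, so they cannot be called particular to the members. Averaged over the 37 members after centring each gene, the values were 0.15, -0.54 and -0.14 in WT and 0.41, 0.30 and -0.18 in KO-labelled ureters, so KO replicate 3 lay below WT replicates 1 and 3.

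In 34 members the range within WT exceeded the difference between the groups, as in 81.5% of all genes. A span of at least 2 log2 units, 4-fold, over the 6 arrays was seen in 4 members, Myh11, Des, Pdlim3 and Casq2, against 3.85% of all genes. The gap from WT replicate 2 to WT replicate 1 was 2.33 in Pdlim3, 2.20 in Casq2, 1.76 in Myh11, 1.44 in Lmod1, 1.34 in Myocd and 1.33 in Kcnma1. As background, the first 5 of these are known mainly from muscle and the potassium channel also from neurons. The 6 were picked out after their values were seen.

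Another 5 contractile members, Cald1, Flna, Pdlim7, Csrp1 and Srf, had their lowest value in WT replicate 1. This is a smaller share of the 37 members than the 29.6% of all genes with their lowest value there, so it does not set these genes apart. The gap from WT replicate 2 to WT replicate 1 was -0.21 in Cald1, -0.15 in Flna, -0.32 in Pdlim7, -0.12 in Csrp1 and -0.19 in Srf. As background, these genes are expressed in fibroblasts and other cells as well as in muscle. No calcium handling or pacemaker gene had its lowest value in WT replicate 1.

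**Figure D4:**
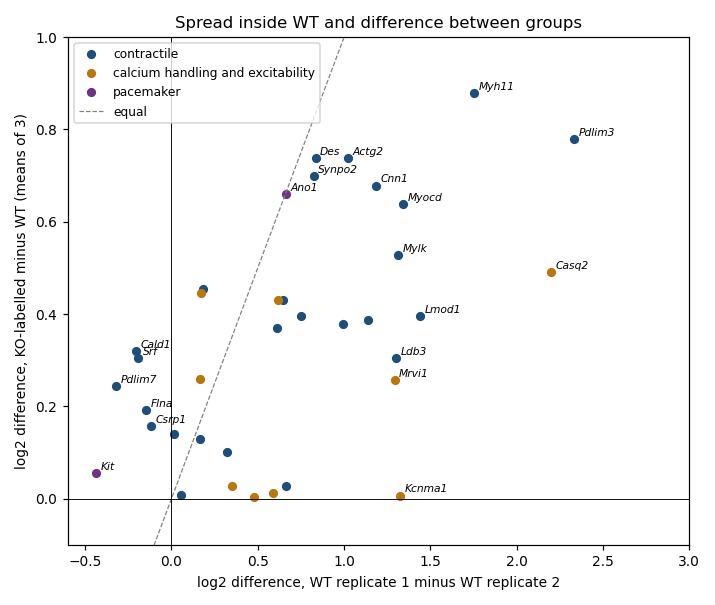
Difference between WT replicates 1 and 2 (x axis, log2) against the difference between KO-labelled and WT means (y axis, log2) for the 37 members, coloured by class, with the dashed line marking equality. Most points lie right of the line, Pdlim3 and Casq2 the farthest at 2.33 and 2.20 on the x axis, and Cald1, Srf, Pdlim7, Flna, Csrp1 and Kit lie left of 0. Both axes use the same WT arrays, so the plot is a description.

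Probes of the same gene were compared where more than 1 was measured. In 15 of 24 such members every probe was higher in KO-labelled ureters, and in 9 (Myl6, Cald1, Ppp1r12b, Vcl, Flna, Kcnma1, Itpr1, Mrvi1 and Kit) the signs differed between probes. Of 84 measured member probes, 72 were higher and 12 lower. The 4 Myh11 probes differed by 0.44 to 0.88, the 4 Acta2 probes by 0.19 to 0.91 and the 3 Synpo2 probes by 0.70 to 0.79, whereas the 4 Ppp1r12b probes ran from -0.34 to 0.35. With the mean of the measured probes in place of the brightest, 33 of 37 members were higher and the calcium handling and excitability median was 0.13.

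Other genes of smooth muscle were taken from a list of 100 names that does not include the members, of which 90 were measured. Of these 63 were higher and 27 lower, where 49.8% of all genes were higher. The median difference was 0.13 (0.07 without WT replicate 2 or without KO replicate 2), and none passed the threshold (limma, lowest adjusted p = 0.454). At an unadjusted p under 0.05 there were 5 higher and 1 lower of the 90. Among all 22260 genes 969 (4.35%) were higher and 1048 lower at that p, so the count of higher genes was near that of all genes. Among 35 contractile and cytoskeletal genes 30 were higher (median 0.17), among 13 genes of transcription and ureter muscle lineage 10 were higher (median 0.16), and among 11 receptor and cyclic nucleotide genes 8 were higher (median 0.06). Among 21 channel, pump and gap junction genes 11 were higher (median 0.01).

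Among the 3 largest positive differences in that list were those of Kcnmb4, a further subunit of the potassium channel (0.72 ± 0.54), and Foxf1, a transcription factor of visceral mesenchyme (0.64 ± 0.29). The 3 largest negative ones were those of Cacna1d, an L-type calcium channel pore of endocrine and pacemaker cells (-0.54 ± 0.59), Avpr1a, a vasopressin receptor (-0.39 ± 0.26), and Adra1a, the alpha-1A adrenergic receptor that contracts the ureter (-0.39 ± 0.30). Of the 35 contractile and cytoskeletal genes, 18 had their lowest value in WT replicate 2 (18.4% of all genes) and 12 in WT replicate 1 (29.6% of all genes). The second count was near the share of all genes, so it does not set those 12 genes apart. Among the 12 were relatives of members, Myh9, Tagln2, Cnn3, Tpm3 and Tpm4, picked out after their values were seen. A difference between muscle and non-muscle genes was not tested. Myh9, a non-muscle myosin heavy chain, had 6.13, 6.80 and 6.69 in WT against 6.42, 6.63 and 6.73 and differed by 0.05 ± 0.20.

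Markers of other tissues moved across the same arrays. The 8 urothelium markers had mean levels of 3.37 to 4.33 in WT and 4.17 to 4.97 in KO-labelled ureters, 7 were higher with a median of 0.89, and WT replicate 2 was the lowest array. The 7 macrophage markers had mean levels of 4.72 to 4.94 in WT and 3.95 to 4.47 in KO-labelled ureters, and all 7 were lower (median -0.56). Of the kidney markers, 5 of 8 were measured, with mean levels of -3.76 to -1.72 in WT and -3.98 to -3.73 in KO-labelled ureters. Slc22a6, a proximal tubule transporter, stood at 0.28 in WT replicate 2 and between -3.39 and -2.39 elsewhere. Not every kidney marker stood out in WT replicate 2. Lrp2 had -4.05, -3.99 and -3.99 in WT replicates 1 to 3 and -4.66, -5.12 and -4.93 in the KO-labelled replicates. It was lower on every KO-labelled array than on any WT array, as were 1809 of all 22260 genes. The difference was -0.89 ± 0.14 (limma, unadjusted p = 0.0006, adjusted p = 0.398). Lrp2 was well above background on only 1 KO-labelled array, so it passed the filter through WT alone. Aqp2 was at -2.35 in WT replicate 2 and -2.31 in KO replicate 3. Umod, Slc12a1 and Kap did not pass the filter on background, which a transcript present on 1 array alone could not pass. The part of these cell types in the members' differences was not tested.

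Of 11 markers of skeletal or cardiac muscle 8 were measured, 7 were higher (median 0.45), and their mean levels were -1.34 to -0.49 in WT and -0.92 to -0.05 in KO-labelled ureters. Actc1 and Tnni2 were the brightest of them. Myh1, Ckm and Myog did not pass the filter on background, but the 8 measured markers were well above it on all 6 arrays. Tnni2 was higher on every KO-labelled array than on any WT array, as were 7.28% of all genes. Its difference was 0.73 ± 0.19 (limma, unadjusted p = 0.00804, adjusted p = 0.4445). Whether skeletal muscle was present in the samples was not tested. The 6 pericyte and vascular muscle markers had mean levels of 2.16 to 2.43 in WT and 2.40 to 2.53 in KO-labelled ureters, with 4 higher and a median of 0.08. After centring, that list spanned -0.25 to 0.12 over the arrays, against -0.54 to 0.41 for the members. The 5 mesothelium markers were all higher, but unevenly, from 0.0094 for the gene Wt1 up to 1.48. Their median, 0.82, is the difference of Krt19, a keratin. Whether its signal came from mesothelium or from another layer was not tested. Medians were 0.01 for fibroblast, 0.07 for endothelium, 0.16 for nerve and glia, -0.07 for adipocyte and -0.0019 for the 6 measured mast cell markers.

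**Figure D5:**
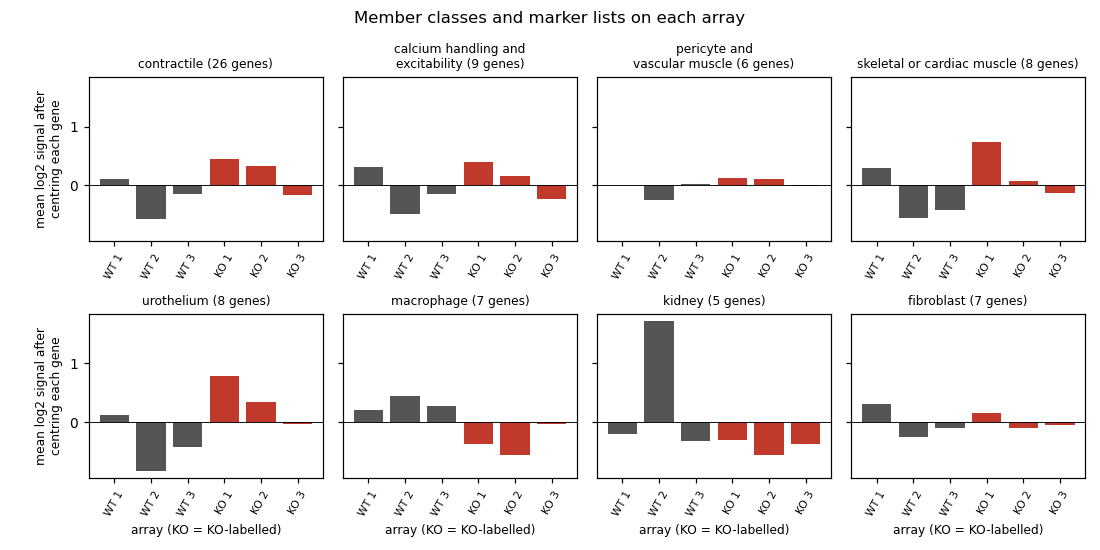
Mean log2 signal per array, after centring each gene on its mean over 6 arrays, for the contractile and the calcium handling members and for 6 marker lists (bars from 0, black WT and red KO-labelled, number of genes in each title). The kidney list stands at 1.71 in WT replicate 2 alone, where the contractile members are at -0.58 and the urothelium markers at -0.82.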

How the data were processed

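The 6 arrays were 1-colour Agilent arrays, 1 per mouse. Per the file headers, the deposited intensity values are background-subtracted output of the Agilent scanner software (Feature Extraction 12.0.3.1), and probe coordinates refer to mm9. The sources used here do not say how the authors normalised between arrays. All arrays shared 1 slide and 1 scan.

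Spots flagged as outliers were set to missing, log2 processed signals were averaged per probe, and each array was centred on its 75th percentile. A probe was used if all 3 arrays of either group were well above background there, and the brightest probe stood for its gene, which left 22260 genes. The groups were compared with limma 3.58.1 (R 4.3.3; lmFit, then eBayes), and p-values were adjusted over all genes by Benjamini-Hochberg, with a threshold of 0.05. The procedure was tested on simulated data. A value after ± is a standard error. With 3 arrays a group, the number of arrays limits the precision. The p-values set each difference against the spread between these mice, which eBayes moderates with the spread of all genes.

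All 39 members are accounted for. From the other smooth muscle genes the 3 highest and 3 lowest differences among genes well above background on all 6 arrays are named, and from each marker list up to 2 of the brightest. Outside this rule, Thbs4, Lrp2, the relatives of members that were lowest in WT replicate 1 and the markers that did not pass the filter are named as well. From the other smooth muscle genes, 1 gene that the rule names and 1 group of genes are not reported here. The members and lists were chosen with earlier results of these data known, so lists are described by counts and medians without a test. Alternatives covered background correction, normalisation, the background filter, probe choice, the variance model, array weights, a block, sex and arrays left out.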

Additional observations from a re-analysis of the deposited data

How the results depend on the processing

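The count of members past the adjusted threshold was 0 in the main analysis and in all 17 alternatives. No class median changed by more than its spread between replicates, but this bound was wide and does not show that the medians were stable. For the calcium handling and excitability genes the spread was 0.36, larger than their median of 0.26, which fell to -0.03 without WT replicate 2. The lowest adjusted p of a member was 0.0524, with array weights, where 19 members were higher at an unadjusted p under 0.05, as 13.4% of all genes were, and 498 of all genes passed the adjusted threshold in either direction. With sex as a covariate, which takes the female array out of the comparison, 9 members were higher at that p (6.1% of all genes) and the median over all members was 0.55. Under normexp the median over all members was 0.24 and that of the calcium handling and excitability genes 0.12, and dim members such as Lmod1, Ldb3, Myocd and Casq2 had smaller differences. Replicate numbers did not pair the arrays throughout. Deviations of same-numbered arrays correlated at 0.531 for replicate 1, but at -0.149 for replicate 2 and -0.0295 for replicate 3. A replicate block cannot change the members' differences, because each replicate number has 1 array in each group, so it bears only on their p-values. With it, 1 member was at an unadjusted p under 0.05 (4.89% of all genes were, and higher). The lowest adjusted p of a member was then 0.504, and 1 of all genes passed.

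Some member differences turned negative in some settings, and the cause was not tested. Not all of them were near 0 in the main analysis, where Pdlim7 stood at 0.24 and Vcl at 0.14. Lmod1 (0.40), Ldb3 (0.31) and Mrvi1 (0.26) also turned negative, with 1 array left out. Under normexp the negative differences were those of Kcnma1 (-0.029) and Pde5a (-0.0046). With probes averaged per gene they were Myl6 (-0.020), Ppp1r12b (-0.026), Itpr1 (-0.11) and Kit (-0.012). With array weights they were Myl6 (-0.043), Vcl (-0.070), Pdlim7 (-0.0036) and Kit (-0.20). Without WT replicate 2 and KO replicate 3 together they were Ppp1r12b (-0.0067) and Kcnma1 (-0.26).

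With each array left out in turn, differences ran from -0.071 to 0.048 for Myl6, -0.043 to 0.68 for Lmod1, -0.11 to 0.23 for Ppp1r12b, -0.0076 to 0.68 for Ldb3 and -0.36 to 0.30 for Kcnma1. They ran from -0.068 to 0.16 for Itpr1, -0.028 to 0.62 for Mrvi1, -0.13 to 0.21 for Pde5a, -0.20 to 0.34 for Prkg1 and -0.18 to 0.28 for Kit. The median ran from 0.22 to 0.60 over the contractile genes, -0.03 to 0.34 over the calcium handling and excitability genes, 0.20 to 0.45 over the pacemaker pair, 0.21 to 0.55 over all members and 0.07 to 0.13 over the other smooth muscle genes.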
